A study of Mus musculus with 9 samples.

Results

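The 4 tropomyosin genes of the mouse, Tpm1, Tpm2, Tpm3 and Tpm4, were followed with their isoforms through the exit of embryonic stem cells from self-renewal. They were taken by symbol after each transcript of the deposited tables had been assigned to a gene, which gave 4 of 35896 genes and 45 of 119414 transcripts. Of the transcripts, 21 belonged to Tpm1, 6 to Tpm2, 16 to Tpm3 and 2 to Tpm4. The 9 poly-A RNA libraries came from E14, 1 established line of mouse embryonic stem cells, and form 3 groups of 3 replicates with shared numbers. Control cells with LIF2i grew in self-renewal medium, which contains the cytokine LIF, the MEK inhibitor PD0325901 at 1 µM and the glycogen synthase kinase 3 beta inhibitor CHIR99021 at 1 µM. Control cells without LIF2i had all of these withdrawn for 72 h. CK666 cells had them withdrawn for the same 72 h with 80 µM CK666, an inhibitor of the Arp2/3 complex. CK666 came from a stock in DMSO, and the labels do not say whether the controls received DMSO, so the inhibitor and its solvent cannot be told apart. The study asks what the Arp2/3 complex, a nucleator of branched actin, contributes to differentiation.

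Tropomyosins are coiled-coil proteins that lie end to end along actin filaments and set which other proteins can bind them. Filaments coated with tropomyosin are typically those of stress fibres and contractile bundles, while branched networks made by the Arp2/3 complex carry little of it. The family makes many isoforms by alternative promoters and alternative splicing, and Tpm1 is a known target of the transcription factor SRF.

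All 4 genes are given here by their GRCm38 positions in GENCODE M21. Tpm1 lies on the minus strand at chr9:67022590-67049406, Tpm2 on the minus strand at chr4:43514711-43523765, Tpm3 on the plus strand at chr3:90072649-90100902 and Tpm4 on the plus strand at chr8:72134975-72153142. Isoforms are described by 4 choices: first coding exon 1a or 1b, second coding exon 2a or 2b, sixth exon 6a or 6b, and last coding exon 9a, 9b, 9c or 9d. Transcripts that start at exon 1a encode the long proteins and those that start at exon 1b the short ones. The exon 1a isoforms Tpm1-213 and Tpm2-203 encode 284 residues, and the exon 1b isoforms Tpm1-212, Tpm3-201 and Tpm4-201 encode 248. Exon 2a of Tpm1 is known from smooth muscle, exon 9a from striated muscle and exon 9c from brain.

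The coding parts of the first exons of Tpm1 are shown because the isoforms that start there behaved differently in these cells. They are read 5′ to 3′ from the GENCODE M21 transcripts, with the start codon in capitals. Exon 1a lies at chr9:67049019-67049132 and exon 1b, in the intron between exons 2b and 3 of the long transcripts, at chr9:67043578-67043709.
Tpm1 exon 1a: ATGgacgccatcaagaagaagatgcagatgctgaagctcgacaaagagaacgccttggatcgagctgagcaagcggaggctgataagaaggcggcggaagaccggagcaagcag
Tpm1 exon 1b: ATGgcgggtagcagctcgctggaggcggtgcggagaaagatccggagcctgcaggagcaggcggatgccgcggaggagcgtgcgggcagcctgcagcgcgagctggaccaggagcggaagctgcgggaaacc

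The same exons of the other genes show how far reads can tell the members apart. Capitals mark bases that differ from Tpm1 exon 1a in Tpm2 and from Tpm1 exon 1b in Tpm3 and Tpm4. They lie at chr4:43523241-43523354, chr3:90079732-90079863 and chr8:72135322-72135453. Tpm2 matched Tpm1 at 93 of 114 bases of exon 1a (81.6%). Over the 132 bases of exon 1b, Tpm3 matched Tpm1 at 84 (63.6%), Tpm4 matched Tpm1 at 95 (72.0%), and Tpm3 matched Tpm4 at 92 (69.7%).
Tpm2 exon 1a: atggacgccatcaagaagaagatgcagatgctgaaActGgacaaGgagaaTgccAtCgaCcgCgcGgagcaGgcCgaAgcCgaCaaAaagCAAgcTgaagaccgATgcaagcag
Tpm3 exon 1b: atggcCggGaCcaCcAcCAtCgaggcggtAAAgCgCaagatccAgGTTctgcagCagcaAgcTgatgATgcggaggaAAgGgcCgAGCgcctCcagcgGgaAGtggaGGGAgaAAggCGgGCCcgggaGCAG
Tpm4 exon 1b: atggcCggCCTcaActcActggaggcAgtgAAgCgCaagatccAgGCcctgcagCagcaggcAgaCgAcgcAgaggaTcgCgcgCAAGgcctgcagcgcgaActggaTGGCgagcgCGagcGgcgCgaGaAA

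The alternative inner exons of Tpm1 are shown because the isoforms detected after withdrawal differ by them. Capitals mark the bases at which the members of a pair differ. Exons 2a and 2b matched at 60 of 126 bases (47.6%) and lie at chr9:67048124-67048249 and chr9:67047786-67047911. Exons 6a and 6b matched at 43 of 76 bases (56.6%) and lie at chr9:67032466-67032541 and chr9:67031951-67032026.
Tpm1 exon 2a: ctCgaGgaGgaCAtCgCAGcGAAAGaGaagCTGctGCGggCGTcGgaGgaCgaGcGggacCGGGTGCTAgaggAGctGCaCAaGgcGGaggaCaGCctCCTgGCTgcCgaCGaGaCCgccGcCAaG
Tpm1 exon 2b: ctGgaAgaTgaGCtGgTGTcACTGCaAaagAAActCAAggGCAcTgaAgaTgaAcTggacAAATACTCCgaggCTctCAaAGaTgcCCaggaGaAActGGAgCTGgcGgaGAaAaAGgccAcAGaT
Tpm1 exon 6a: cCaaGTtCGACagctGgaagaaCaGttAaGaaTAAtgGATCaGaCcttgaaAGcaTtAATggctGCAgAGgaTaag
Tpm1 exon 6b: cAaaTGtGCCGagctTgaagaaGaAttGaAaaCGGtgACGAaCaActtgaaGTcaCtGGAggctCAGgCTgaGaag

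**Figure D1:**
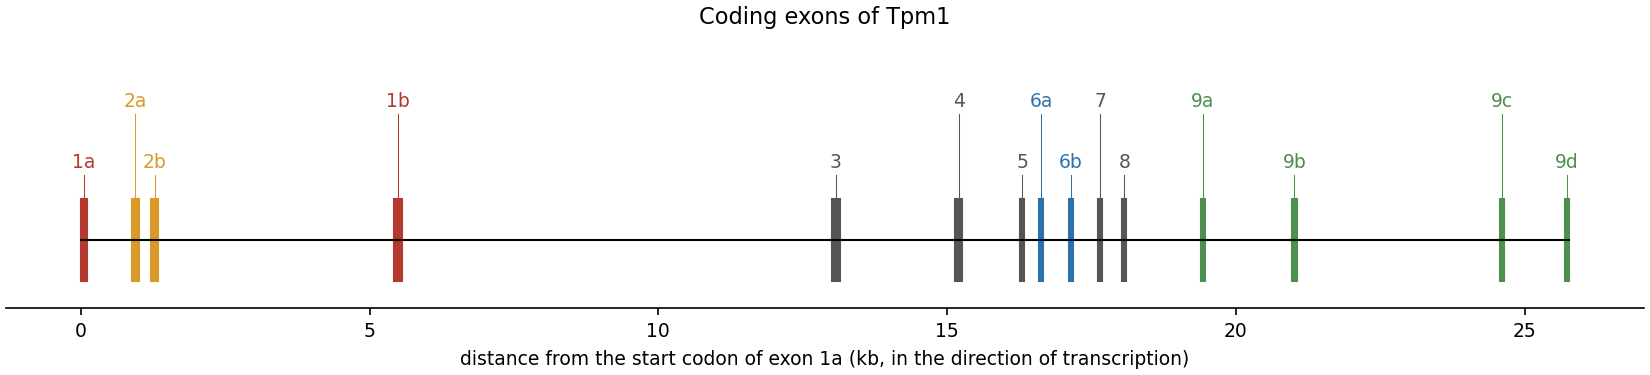
Coding exons of Tpm1 on 1 line, drawn to scale by distance from the start codon of exon 1a in kilobases in the direction of transcription. Colours mark the alternative exons and grey the shared ones: exons 1a and 1b, 2a and 2b, and 6a and 6b are alternatives, and the last coding exon is 9a, 9b, 9c or 9d.

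The libraries held 16894327 to 22550952 estimated counts. Within each group the replicate 1 library stood apart, with 15690 to 17605 genes above 0 counts against 18166 to 18749 in replicates 2 and 3, so results that turn on replicate 1 are also given without it. Marker sums in TPM (transcript abundance scaled per length and library) were read from lists of cell type markers. The 5 markers of pluripotent cells summed to 3331 to 3980 TPM in control cells with LIF2i, 1469 to 1864 without LIF2i and 1660 to 1904 with CK666. In the same order, the 6 markers of smooth muscle summed to 14.2 to 21.1, 83.2 to 256 and 46.8 to 131, the 10 of striated muscle to 14.2 to 18.3, 25.2 to 64.4 and 26.5 to 33.2, the 7 of fibroblasts to 9.25 to 14.3, 31.1 to 38.2 and 24.9 to 35.5, and the 5 of endoderm to 3.96 to 5.36, 3.06 to 8.73 and 5.24 to 9.63. Of the striated muscle markers, Myod1 and Actc1 were at 0 in all 3 libraries with LIF2i, while Des reached 15.7 TPM there. Markers of this list went both ways on withdrawal, with 4 of 9 tested called as raised and 2 as lowered. Of the smooth muscle markers, Tagln reached 150 TPM, Cnn1 62.6 TPM and Acta2 53.5 TPM in control cells without LIF2i, Lmod1 reached 1.64 TPM and Des 17.7 TPM, and Myh11, a gene of mature smooth muscle, reached 0.209 TPM.

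In self-renewing cells Tpm3 was the most abundant of the 4 genes and Tpm2 the least. Control cells with LIF2i held 726, 259 and 323 TPM of Tpm3 in replicates 1, 2 and 3, 121, 90.1 and 77.8 TPM of Tpm4, 75.8, 83.9 and 97.8 TPM of Tpm1, and 20.6, 23.6 and 25.5 TPM of Tpm2. Tpm4 and Tpm1 overlapped, while Tpm3 stood above and Tpm2 below them in all 3 libraries. As a share of the 4 genes together, Tpm3 took 65.1 ± 10.6% (SD, n = 3), Tpm4 15.8 ± 3.56%, Tpm1 15.0 ± 6.05% and Tpm2 4.07 ± 1.63%. These shares compare genes per length.

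The order changed after withdrawal, and the change lay mainly with Tpm1. Without LIF2i, Tpm1 was at 226, 729 and 840 TPM, and it ranked below Tpm3 in replicate 1 but above it in replicates 2 and 3. Tpm1 then took 45.1 ± 18.9% of the 4 genes and Tpm3 33.4 ± 15.1%, Tpm4 14.4 ± 3.33% and Tpm2 6.98 ± 0.728%. In CK666 cells the shares were 39.4 ± 20.3% for Tpm1, 35.7 ± 16.9% for Tpm3, 14.1 ± 3.42% for Tpm4 and 10.8 ± 1.51% for Tpm2. The spread of the Tpm1 and Tpm3 shares overlapped in both withdrawn groups. The 4 genes together summed to 943, 457 and 524 TPM with LIF2i, 968, 1310 and 1489 TPM without it and 795, 672 and 1114 TPM with CK666. In bulk RNA, fewer cells of a type and less RNA per cell cannot be told apart.

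**Figure D2:**
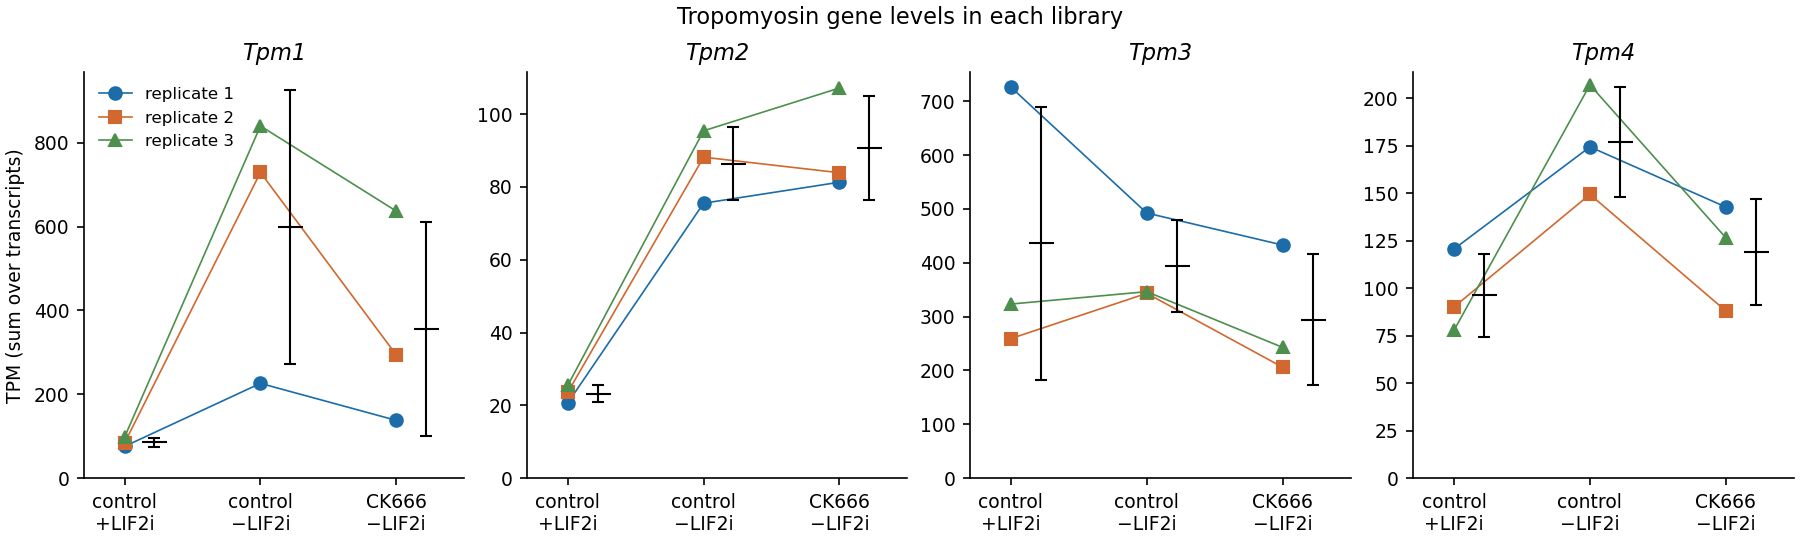
Level of Tpm1, Tpm2, Tpm3 and Tpm4 in TPM in each library, with points for replicates 1, 2 and 3, lines joining the same replicate number, and black bars for the mean ± SD (n = 3). Tpm1 ran from 75.8 to 97.8 TPM with LIF2i and from 226 to 840 TPM without it, while the Tpm3 groups overlapped.

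Withdrawn and self-renewing control cells were compared to ask how tropomyosin expression changes on exit from self-renewal. Tpm1, Tpm2 and Tpm4 rose and Tpm3 did not pass the test. These 3 of 4 called members stand beside a background of 40.7% of all 14648 genes tested called in either direction and 21.1% called as raised. At an unadjusted p under 0.05, the same 3 of 4 members and 48.7% of all genes passed.

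Tpm1 rose in every pair. Its level without LIF2i was 2.98, 8.69 and 8.59 times that with LIF2i in replicates 1, 2 and 3, and the groups did not overlap. The fitted log2 fold change was 2.79 (SE 0.28, 6.94-fold, adjusted p = 1.0e-04, edgeR), and without all libraries of replicate 1 it was 3.22 (adjusted p = 1.2e-04, edgeR). The summed smooth muscle markers were 83.2, 221 and 256 TPM in these 3 libraries, in the same order as Tpm1, against 14.2 to 21.1 TPM with LIF2i. Of the 6 smooth muscle markers 4 rose, among them Tagln and Acta2, chosen here after their values were seen. Of 9 tested striated muscle markers 4 rose and 2 fell, of 7 fibroblast markers 3 rose, and of 4 endoderm markers 0 rose. Of all genes 21.1% were called as raised. The part of these markers in the Tpm1 result was not tested.

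Tpm2, which encodes the tropomyosin also known as beta, went from 20.6, 23.6 and 25.5 TPM to 75.5, 88.2 and 95.4 TPM. The groups did not overlap and the ratio was nearly the same in each pair, at 3.66, 3.74 and 3.75. Its log2 fold change was 1.82 (SE 0.13, 3.53-fold, adjusted p = 1.6e-05, edgeR).

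Tpm4, whose product is a short tropomyosin found widely outside muscle, went from 121, 90.1 and 77.8 TPM to 174, 149 and 207 TPM. The groups did not overlap and the level was higher in 3 of 3 pairs, by 1.45, 1.66 and 2.66 times. Its log2 fold change was 0.84 (SE 0.18, 1.79-fold, adjusted p = 0.0045, edgeR), and without all libraries of replicate 3 it was 0.60 with an adjusted p of 0.068, above the threshold of 0.05.

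Tpm3 was at 492, 343 and 346 TPM without LIF2i against 726, 259 and 323 TPM with it. The groups overlapped, with ratios of 0.678, 1.32 and 1.07. Its log2 fold change was -0.03 (SE 0.16, adjusted p = 0.90, edgeR), with a 95% interval of -0.39 to 0.33 that is not adjusted for multiple tests. Without replicate 1 the value was 0.24 (adjusted p = 0.083, edgeR).

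**Figure D3:**
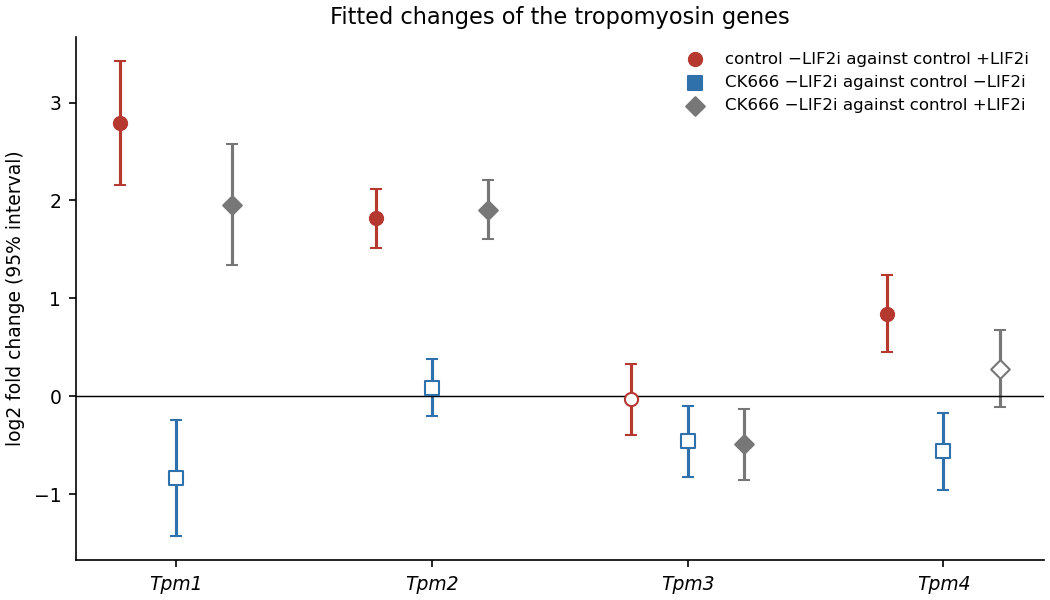
Log2 fold changes of Tpm1, Tpm2, Tpm3 and Tpm4 from the edgeR fit in the comparisons of the 3 groups, with bars for the 95% interval. Filled symbols passed the adjusted threshold and open symbols did not, as shown for all 4 genes in CK666 against control cells without LIF2i.

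Within Tpm1 the isoforms starting at exon 1a carried most of the rise. Transcripts from exon 1a summed to 12.4, 18.2 and 15.1 TPM with LIF2i and to 138, 599 and 714 TPM without it. Those from exon 1b summed to 62.4, 60.1 and 78.6 TPM with LIF2i and to 78.7, 103 and 86.5 TPM without it. Neither sum overlapped between the groups, although the highest exon 1b value with LIF2i and the lowest without it were nearly equal. Both start codon groups rose, exon 1a with a log2 fold change of 4.69 (SE 0.48, adjusted p = 5.9e-04, edgeR) and exon 1b with 0.76 (SE 0.12, adjusted p = 0.0036, edgeR). Of all 16266 start codon groups tested, 29.9% were called and 16.2% as raised, and among the members 4 of 5 rose. The call for exon 1b was lost in the fit without the replicate block (log2 fold change 0.74, adjusted p = 0.11, edgeR) and without all libraries of replicate 2 (adjusted p = 0.061), and that for exon 1a held in both.

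The share of protein-coding Tpm1 TPM from exon 1a went from 16.5, 23.2 and 16.1% with LIF2i to 63.7, 85.3 and 89.2% without it. The groups lay far apart, at 18.6 ± 3.98% and 79.4 ± 13.8% (SD, n = 3). The test of start codon usage, which sets the change of each start against that of the gene, called both, with 1.30 for exon 1a (adjusted p = 0.049, edgeR) and -1.43 for exon 1b (adjusted p = 0.039, edgeR) on the log2 scale. Of 4469 start codon groups tested for usage, 0.559% were called, 0.358% as higher and 0.201% as lower. Only 2 starts of Tpm1 were tested, so these usage calls describe 1 shift from both sides. They lie near the threshold. Without the replicate block the adjusted p was 0.37 for exon 1a and 0.21 for exon 1b. The call for exon 1a was also lost with DESeq2-type size factors (adjusted p = 0.051) and without the filter on low counts (adjusted p = 0.059), while that for exon 1b was kept in both. In 12 fits that each left out a library or a replicate number, the call remained in 1 for exon 1a and in 2 for exon 1b, with adjusted p up to 0.46 and 0.47. Without replicate 1 they were 0.091 and 0.056.

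**Figure D4:**
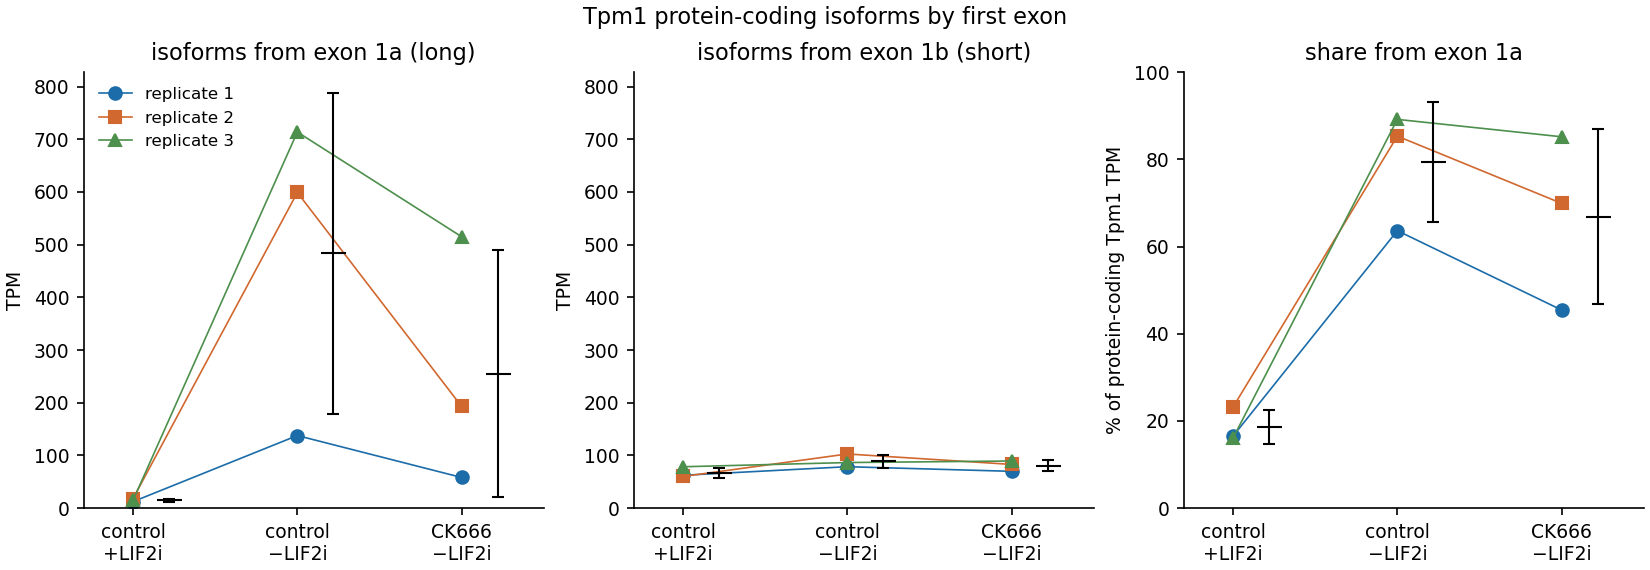
Tpm1 transcripts that start at exon 1a and at exon 1b, summed in TPM, and the share of exon 1a in percent of protein-coding Tpm1 TPM, with points for replicates 1, 2 and 3, lines joining the same replicate number and black bars for the mean ± SD (n = 3). Exon 1a ran from 12.4 to 18.2 TPM with LIF2i and from 138 to 714 TPM without it, while exon 1b ran from 60.1 to 103 TPM over both groups.

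At the level of single transcripts, 26 of the 45 members passed the filter on low counts. In the comparison of withdrawal 10 of these 26 rose and 0 fell, against 6.3% of 39637 transcripts called and 3.59% called as raised. They were 8 of 16 tested Tpm1 transcripts, Tpm2-203 and Tpm4-201. For transcript usage 0.21% of 34697 tested were called, 0.15% as higher, and the members among them were Tpm1-203, Tpm1-213, Tpm1-214 and Tpm1-216, all starting at exon 1a and all higher. Reads that fit several isoforms are divided by the quantifier, and the error of that division is not in the test. Tpm1-216 has 131 stretches of 31 bases found in no other transcript, and Tpm1-201 has 816. Tpm1-213, Tpm1-203 and Tpm1-214 have none, nor do Tpm1-204, Tpm1-205, Tpm1-206, Tpm1-211, Tpm1-212 and Tpm1-215, so their levels rest on how reads were divided.

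The Tpm1 isoform with the highest mean TPM in control cells without LIF2i was Tpm1-213, made of exons 1a, 2b, 6a and 9d. It was at 0, 0 and 0 TPM with LIF2i, at 70.1, 221 and 366 TPM without it and at 15.2, 28.5 and 168 TPM with CK666. With the 0 counts as given and a floor of 3 counts per library, it was at least 1608-fold higher in control cells without LIF2i. In CK666 cells it was at least 519-fold higher, also against control cells with LIF2i. Both limits lean on replicate 3: without it they are 1041-fold and 156-fold. Neither limit covers error in the division of reads, by which reads of Tpm1-213 may have gone to other isoforms with LIF2i. All exon 1a isoforms together were at 11.1, 33.0 and 47.3 times their level with LIF2i in replicates 1, 2 and 3. The call for Tpm1-213 in withdrawal (adjusted p = 0.0043, edgeR) remained in the 3 other settings of the transcript test and in 10 of 12 fits with libraries left out.

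Other isoforms with exon 1a were called beside it, but not all. Tpm1-203, which ends in exons 9a and 9b, was at 6.7e-05, 1.06 and 0 TPM with LIF2i, 16.9, 143 and 157 TPM without it and 14.9, 49.5 and 174 TPM with CK666. Tpm1-214, which has exon 2a in place of 2b, was at 0, 0 and 0 TPM with LIF2i, 7.64, 76.5 and 61.8 TPM without it and 7.38, 36.9 and 42.6 TPM with CK666. All 3 libraries without LIF2i lay above all 3 with LIF2i for both isoforms. With its 0 counts as given, Tpm1-214 was at least 346-fold higher without LIF2i. On the same terms Tpm1-215, which has exons 2a and 6b, was at least 55.6-fold higher, or 26.8-fold without replicate 2. Neither limit covers error in the division of reads. Tpm1-201 and Tpm1-205 were the main exon 1a isoforms with LIF2i. Tpm1-201 was at 7.06, 9.49 and 8.91 TPM with LIF2i and 20.6, 41.7 and 57.1 TPM without it (log2 fold change 2.11, adjusted p = 0.022, edgeR). Tpm1-205, with exons 2b, 6b, 9a and 9b, was at 5.32, 7.32 and 4.53 TPM with LIF2i and 2.40, 36.5 and 10.8 TPM without it, and was not called (log2 fold change 0.51, adjusted p = 0.89, higher in 2 of 3 pairs). The calls for Tpm1-216, Tpm1-201, Tpm1-217 and Tpm1-221 were lost without the replicate block, and that for Tpm1-203 was lost without the filter on low counts (adjusted p = 0.058). With libraries left out, the call remained in 4 of 12 fits for Tpm1-201, 8 for Tpm1-203, 10 for Tpm1-214, 9 for Tpm1-215, 9 for Tpm1-216, 6 for Tpm1-217 and 1 for Tpm1-221. Tpm1-217 is annotated as a retained intron and Tpm1-221 as a processed transcript.

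No short isoform of Tpm1 was called on withdrawal. Tpm1-212, with exons 1b, 6a and 9d, was at 18.0, 22.9 and 32.3 TPM with LIF2i and 61.7, 32.9 and 31.3 TPM without it, and the groups overlapped. Tpm1-204, which ends in exons 9a and 9b, was at 23.2, 15.6 and 22.7 TPM with LIF2i and 0, 5.08 and 0 TPM without it. The latter groups did not overlap, but the adjusted p was 0.23 (edgeR). Tpm1-206, with exons 1b, 6b and 9b, was at 4.79, 7.33 and 4.38 TPM with LIF2i and 0, 0 and 0 TPM without it (adjusted p = 0.14, edgeR). Tpm1-211, with exons 1b, 6b and 9d, was at 14.0, 12.3 and 17.3 TPM with LIF2i and 8.68, 50.2 and 34.7 TPM without it (adjusted p = 0.75, edgeR), and its groups overlapped. Usage of these 4 isoforms had adjusted p from 0.076 for Tpm1-204 to 0.95 for Tpm1-211. None of the 4 has a stretch of 31 bases of its own, so their levels rest on how reads were divided.

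**Figure D5:**
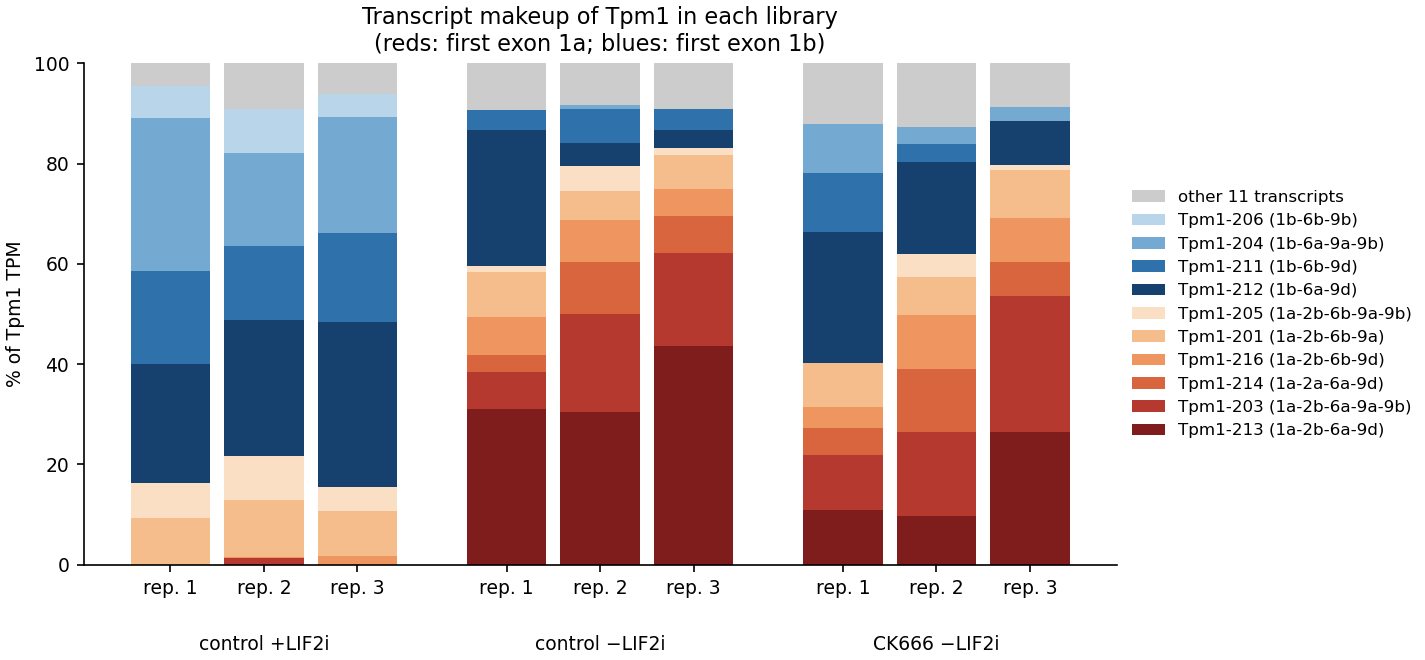
Makeup of Tpm1 in each library, as the share of the gene's TPM in percent held by each of 10 isoforms, stacked to 100%. Reds mark isoforms that start at exon 1a, blues those that start at exon 1b and grey the other 11 transcripts, and the red part is smallest in the 3 libraries with LIF2i.

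Exon choices further along Tpm1 were read as shares of TPM. Exon 2a was in 0% of the exon 1a isoforms with LIF2i, in 7.86, 15.2 and 9.41% without it and in 17.6, 24.2 and 9.24% with CK666. Exon 6a was in 56.2 ± 4.98% of the coding isoforms with LIF2i, 73.8 ± 4.45% without it and 70.9 ± 5.59% with CK666 (SD, n = 3), and the libraries of control cells with and without LIF2i did not overlap. Exon 9d ended 47.6 ± 6.28%, 70.3 ± 6.61% and 60.5 ± 5.75%, and exon 9a, alone or with 9b, ended 43.0 ± 4.50%, 26.2 ± 7.07% and 36.3 ± 5.86%. The brain exon 9c lay between 2.60 and 3.04% in the group means. The shares of exons 2a and 6a have no test of their own here.

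The stop codon groups were tested. Of the members' 10 tested groups 5 rose on withdrawal, against 25.2% called of 18693 and 13.8% called as raised. In Tpm1, the groups ending in 9d (log2 fold change 3.20, adjusted p = 2.4e-04, edgeR), in 9c (2.94, adjusted p = 0.0011) and in 9a alone (2.07, adjusted p = 0.0042) rose, and the last of these had an adjusted p of 0.052 without the replicate block. The groups ending in 9a with 9b (2.14, adjusted p = 0.055) and in 9b (-2.34, adjusted p = 0.31) did not pass. For stop codon usage 0.0951% of 8414 were called, none of them among the 9 member groups tested, of which 1 had an unadjusted p under 0.05, beside 4.23% of all groups.

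Withdrawn cells with and without CK666 were compared to ask what inhibition of the Arp2/3 complex does to these genes. No member was called, against 2.05% of all genes, although 3 of 4 members, and 19.7% of all genes, had an unadjusted p under 0.05. The fit without the replicate block called 0 genes at all. DESeq2 called Tpm1 (adjusted p = 0.018) and Tpm4 (adjusted p = 0.043) and none of the other alternatives that kept all libraries called a member.

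Tpm1 was at 138, 294 and 637 TPM with CK666 against 226, 729 and 840 TPM in its controls. It was lower in 3 of 3 pairs, at 0.609, 0.403 and 0.758 times the control, while the groups overlapped. The log2 fold change was -0.84 (SE 0.26, adjusted p = 0.13, edgeR), with an unadjusted 95% interval of -1.43 to -0.24. Without replicate 1 it was -0.88 (adjusted p = 0.0502, edgeR), and without the replicate 1 library of control cells with LIF2i, which is in neither group, the adjusted p was 0.014. The smooth muscle markers summed to 46.8, 63.6 and 131 TPM with CK666, below the control of each pair, and none of the 6 was called. Of 9 tested striated muscle markers 1 was called as lower, beside 2.05% of all genes called. The part of these markers in the Tpm1 values was not tested.

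Tpm4 was at 143, 88.0 and 127 TPM with CK666, lower in 3 of 3 pairs at 0.818, 0.589 and 0.611 times the control, and no library lay above the lowest control of 149 TPM. Its log2 fold change was -0.56 (SE 0.17, adjusted p = 0.12, edgeR), and without replicate 1 it was -0.75 (adjusted p = 0.049). Tpm3 was at 433, 206 and 243 TPM, lower in 3 of 3 pairs at 0.879, 0.600 and 0.701 times the control, with overlapping groups. Its log2 fold change was -0.46 (SE 0.16, adjusted p = 0.16, edgeR). Without replicate 1 it was -0.65 (adjusted p = 0.0046), and without the replicate 1 library of control cells with LIF2i it was also called (adjusted p = 0.038).

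Tpm2 stood at 81.3, 83.9 and 107 TPM with CK666 against 75.5, 88.2 and 95.4 TPM. The groups overlapped and the ratios were 1.08, 0.952 and 1.12. The log2 fold change was 0.09 (SE 0.13, adjusted p = 0.76, edgeR), with an unadjusted 95% interval of -0.20 to 0.38.

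The isoforms of Tpm1 gave values of both kinds under CK666. Those from exon 1a summed to 58.2, 193 and 515 TPM, at 0.423, 0.322 and 0.722 times the control, and those from exon 1b to 69.9, 83.0 and 89.5 TPM, at 0.889, 0.807 and 1.03 times. The log2 fold changes were -1.08 for exon 1a (SE 0.41, adjusted p = 0.25, edgeR) and -0.24 for exon 1b (SE 0.12, adjusted p = 0.36), and the share of exon 1a was 45.5, 69.9 and 85.2%. No start codon group of the members was called, against 0.043% of all groups, and 3 of 5, beside 16.4% of all groups, had an unadjusted p under 0.05. Neither was called for usage, where 0% of all groups were, and 0 of 2 members and 3.47% of all groups had an unadjusted p under 0.05. Among transcripts 0% were called, with 5 of 26 members and 7.39% of all at an unadjusted p under 0.05. Tpm1-213 had a log2 fold change of -2.06 (adjusted p = 0.45, edgeR) and was lower in 3 of 3 pairs. Tpm1-204 went the other way, from 0, 5.08 and 0 TPM in the controls to 13.7, 9.96 and 17.7 TPM (adjusted p = 0.71, edgeR), higher in 3 of 3 pairs. For transcript usage 0.0173% were called, with no member among them and 2 of 26 members and 2.92% of all at an unadjusted p under 0.05. No stop codon group of the members was called, against 0.0267%, with 5 of 10, and 14.6% of all groups, at an unadjusted p under 0.05. For stop codon usage 0% were called, with 0 of 9 members and 3.05% of all groups at an unadjusted p under 0.05. The Tpm1 group ending in 9d had -1.03 (adjusted p = 0.12, edgeR).

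CK666 cells without LIF2i were also set against control cells with LIF2i, which share libraries with both comparisons above. Of the members 3 of 4 were called, against 36.9% of all genes, 19.8% as raised and 17.1% as lowered. Tpm1 had a log2 fold change of 1.96 (adjusted p = 6.7e-04, edgeR) and Tpm2 of 1.91 (adjusted p = 1.7e-05, edgeR), both higher in 3 of 3 pairs. Tpm4 had 0.28 (adjusted p = 0.24, edgeR) and was higher in 2 of 3 pairs. Tpm3 had -0.49 (SE 0.16, adjusted p = 0.039, edgeR) and was lower in 3 of 3 pairs. The Tpm3 call was lost without the replicate block (-0.51, adjusted p = 0.32) and in both tests on log2 TPM, and it remained in 4 of 12 fits with libraries left out, among them that without replicate 1 (-0.41, adjusted p = 0.0096).

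Outside Tpm1 each gene was dominated by 1 isoform in every group. Tpm2-203, with exons 1a, 2b, 6a and 9d, held 92.0 to 98.3% of Tpm2 TPM in the 9 libraries and rose on withdrawal with a log2 fold change of 1.94 (adjusted p = 0.0022, edgeR), a call lost without replicate 2 (adjusted p = 0.072) and without replicate 3 (0.092) among 12 fits with libraries left out. Tpm2-201, which ends in exon 9a, did not exceed 2.48 TPM. Tpm4-201, with exons 1b, 6b and 9d, held 99.2% or more of Tpm4 and rose with 0.92 (adjusted p = 0.040, edgeR), a call that remained in 0 of 12 fits with libraries left out.

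Tpm3-201, with exons 1b, 6a and 9d, held 69.0 to 79.6% of Tpm3 TPM, and the annotated retained intron Tpm3-212 held 16.0 to 24.0%. Tpm3-212 is 655 bases long and was at 142, 62.2 and 61.2 TPM with LIF2i, 112, 75.6 and 55.5 TPM without it and 77.4, 38.8 and 42.6 TPM with CK666. It went with Tpm3-201, which was at 573, 179 and 243 TPM, 369, 250 and 276 TPM, and 338, 153 and 186 TPM. Neither was called on withdrawal. Tpm3-212 has no stretch of 31 bases of its own, so its level and its likeness to Tpm3-201 depend on how reads were divided. The long isoforms of Tpm3 from exon 1a, Tpm3-204 and Tpm3-205, did not exceed 1.06 TPM in any library, so the short isoforms made up nearly all coding Tpm3. Tpm3-201 shares 1663 of its 2200 stretches of 31 bases with the retrogene Tpm3-rs7, which held at most 12.6 counts in a library.

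The promoter of the long Tpm1 transcripts is shown because Tpm1 and Srf rose together. It is the RefSeq sequence of GRCm38 at chr9:67049164-67049463 on the minus strand, 250 bases before to 50 after the start. The CArG box, the motif bound by SRF, was searched on both strands. None of the promoters of the 4 genes in the table held it, against 1.63% of 32851 promoters of the same length. With up to 1 mismatch, the Tpm1 promoter held 2, starting at positions -221 and -80 from the start and shown in capitals. The 2 Tpm3 promoters held 1 and 2, and those of Tpm2 and Tpm4 held 0, against 21.1% of all promoters. A match is a description of letters and not a binding site. The promoter before exon 1b was not analysed here.
Tpm1 promoter: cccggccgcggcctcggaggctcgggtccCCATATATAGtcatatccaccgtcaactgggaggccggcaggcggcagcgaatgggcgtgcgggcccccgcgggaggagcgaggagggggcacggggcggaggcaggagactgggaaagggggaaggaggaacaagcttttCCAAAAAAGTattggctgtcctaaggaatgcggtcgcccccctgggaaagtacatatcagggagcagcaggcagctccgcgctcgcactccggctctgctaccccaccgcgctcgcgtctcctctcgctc

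Partners of tropomyosin on the filament were read from lists, whose counts stand beside 21.1% of all genes called as raised and 40.7% called in either direction on withdrawal. In withdrawal, 1 of 3 tested tropomodulins and leiomodins, which cap or nucleate filaments, rose and 0 fell. This was Lmod1, with a log2 fold change of 2.78 (adjusted p = 0.0017, edgeR), while Tmod3 had -0.33 (adjusted p = 0.061) and Tmod2 had 0.30 (adjusted p = 0.11). Of 7 tested calponins, caldesmon and troponins, 2 rose and 1 fell. Cnn1, a calponin of smooth muscle, rose by 6.78 (adjusted p = 7.9e-06, edgeR) and Cnn2 by 1.90 (adjusted p = 0.0092), Cnn3 fell by 0.65 (adjusted p = 0.0060), and Cald1, caldesmon, had -0.05 (adjusted p = 0.95).

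The cofilin family severs filaments and competes with many tropomyosins. Of its 3 genes Dstn rose by 1.15 (adjusted p = 0.0021, edgeR) and Cfl1 by 0.59 (adjusted p = 0.019), and Cfl2 had 0.30 (adjusted p = 0.10). Of the 3 nonmuscle myosin II heavy chains, the motors of stress fibres, Myh10 rose by 0.80 (adjusted p = 0.0035, edgeR), Myh9 had 0.03 (adjusted p = 0.90) and Myh14 had -0.34 (adjusted p = 0.070). Of SRF and its coactivators, Srf rose by 2.10 (adjusted p = 9.0e-06, edgeR), and Mrtfa (0.45, adjusted p = 0.086) and Mrtfb (0.25, adjusted p = 0.49) did not pass. The median log2 fold changes of these 5 lists were 0.30, -0.03, 0.59, 0.03 and 0.45 in the order given, beside 0.01 over all genes.

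Of the 17 splicing regulators that have been studied on tropomyosin exons, 6 rose and 2 fell on withdrawal, near the 40.7% of all genes called in either direction, with a median log2 fold change of 0.27 beside 0.01 over all genes. Hnrnph1 rose by 0.91 (adjusted p = 4.2e-04, edgeR). Among other abundant members, Hnrnpa1 (0.40, adjusted p = 0.099), Hnrnpf (-0.24, adjusted p = 0.16) and Ptbp1, a repressor of muscle exons (0.10, adjusted p = 0.51), did not pass. Qk went down, from 390 ± 127 CPM (counts relative to library size) in control cells with LIF2i to 172 ± 13.9 CPM without it (SD, n = 3). Hnrnph1 was at 159 ± 43.1 and 297 ± 65.4 CPM in the same groups. Under CK666 against control cells without LIF2i, 1 of the 17 splicing regulators and no gene of the other 5 lists was called, beside 2.05% of all genes. This was the epithelial splicing factor Esrp1, named here after its values were seen. It fell by 1.20 (adjusted p = 0.026, edgeR) after a rise of 6.92 on withdrawal (adjusted p = 1.1e-06). Srf had -0.52 (adjusted p = 0.070) and Cnn1 had -1.27 (adjusted p = 0.060).

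The genes most like each member over the 9 libraries were found by Pearson correlation of log2 CPM (counts relative to library size) among 9497 genes. They were Reep3 (0.985), Prr14 (0.972) and Lemd3 (0.972) for Tpm1, Mapk12 (0.994), Pi4k2b (0.990) and Stx3 (0.989) for Tpm2, Prmt6 (0.984), Setd2 (0.981) and Prep (0.979) for Tpm3, and Nes (0.944), Zdhhc2 (0.939) and Raly (0.934) for Tpm4. The 9 points share 3 groups and 3 replicate numbers, so these values describe a pattern and carry no test.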

How the data were processed

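Transcript abundance was measured by poly-A RNA sequencing in 9 libraries, 3 in each group. Per the file headers, the authors deposited estimated counts, TPM and effective length per transcript for each library. The estimated counts need not be whole, because reads that fit several transcripts are divided, and TPM is scaled to a fixed sum after division by effective length. The submitters' processing notes name kallisto, sleuth, cutadapt 1.8.1 and FastQC, and the builds mm10 and GRCh38, with no roles. Whether counting used strand is not given in the sources used here.

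Transcripts were assigned to genes with GENCODE M21 (GRCm38), which matched 116640 of 119414, 116073 with the same version and length. The Tpm4 transcripts have later versions in the tables. The other 2774 held 0.895 to 1.08% of a library's counts and were left out of genes. Estimated counts were summed per gene, per start codon or per stop codon and rounded. Tests were run in R 4.3.3 with edgeR 4.0.16: TMM scaling, filterByExpr and the quasi-likelihood test with robust dispersion estimates. All 9 libraries entered 1 fit with the replicate number as a block and 4 residual degrees of freedom, with Benjamini-Hochberg adjustment over all features tested and a threshold of 0.05. Usage was tested by diffSpliceDGE. Standard errors were derived from the test statistic.

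Libraries were paired by the numbers in their titles, which the study's design text calls paired. Deviations from group means correlated with a median of 0.41 (0.30 to 0.65, 9 pairs) between libraries of the same number and -0.37 (-0.53 to 0.29, 18 pairs) between others. Deviations cancel out within a group, so the negative median follows largely from the positive one and is no separate check. Replicates differed by more than counting noise (chi-square per gene of 17.2 to 218). The design text calls them biological, and the labels do not say from which separate cultures or passages of the line they came, so p-values measure the spread between these samples. A floor of 3 counts equals 0.133 to 0.178 CPM and covers counting error only. In data simulated for withdrawal over 14648 genes, the gene fit recovered 13 of 67 genes changed 1.5-fold and 38 of 67 changed 2-fold. It recovered 56 of 66 changed 4-fold and made 3 false calls in all. Far fewer genes were changed there than the 5967 called on withdrawal, so the rates in the real comparison may differ. For start codon usage, 60 of 200 genes whose most abundant start was changed 4-fold were recovered, with 1 false call. The usage test thus often left such a change uncalled.

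The members and all lists were chosen with earlier results of these data known. Transcripts are named where the mean TPM of a group was at least 1 or the share at least 5%. List genes are named by highest mean CPM, up to 4 a list. Exceptions are Tpm3-204 and Tpm3-205, named as the long isoforms of Tpm3, and Qk and Esrp1 among the splicing regulators. Alternatives were a fit without the block, no filter, and other scalings in edgeR (DESeq2-type size factors by relative log expression, length offsets). Others were DESeq2 1.42.0, limma 3.58.1 on voom and on log2(TPM + 1) and log2(TPM + 0.1), and leaving out libraries. Leaving out libraries for the lower limits of fold changes was added after seeing the data.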

Additional observations from a re-analysis of the deposited data

How the results depend on the processing

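Tpm1 and Tpm2 kept their rise on withdrawal in 8 of 8 alternatives and 12 of 12 fits with libraries left out, with log2 fold changes of 2.51 to 3.22 and 1.77 to 1.94. Tpm3 changed sign on withdrawal without replicate 1 of control cells with LIF2i (0.14), of control cells without LIF2i (0.21) and of all groups (0.24), against -0.21 at its lowest with other libraries left out, each with an adjusted p above 0.05, beside -0.03 with all libraries. The cause was not tested.

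The fit without the replicate block lowered most counts. Without it 3509 genes were called on withdrawal in place of 5967, 2966 in place of 5408 for CK666 against control cells with LIF2i, and 0 in place of 300 for CK666 against control cells without LIF2i. Transcripts called on withdrawal went from 2499 to 1556, transcripts called for usage under CK666 from 6 to 3, and stop codon usage on withdrawal from 8 to 5. For CK666 against control cells without LIF2i the other counts of genes were 565 without the filter, 148 with length offsets, 1136 with DESeq2, 553 with voom, 42 on log2(TPM + 1) and 23 on log2(TPM + 0.1), with 5 transcripts and 10 for transcript usage without the filter.

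With libraries left out, genes called ranged from 3099 to 6588 on withdrawal, 0 to 1811 under CK666 and 2413 to 6129 for CK666 against control cells with LIF2i. Transcripts ranged from 0 to 2294 and 0 to 1, transcript usage from 13 to 103 and 0 to 48, start codon usage from 0 to 35 and 0 to 3, and stop codon usage from 1 to 14 and 0 to 1, on withdrawal and under CK666.

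Shares depended on the scale. As shares of counts, exon 9d ended 58.4% of Tpm1 with LIF2i and 66.9% with CK666. Tpm2-203 held 91.0, 93.5 and 96.2% in the 3 groups, and 98.4% of protein-coding Tpm2 TPM with CK666. Tpm3-201 held 92.5, 92.9 and 93.2% of counts and 98.1, 97.8 and 97.9% of protein-coding TPM. Tpm4-201 is the single protein-coding transcript of Tpm4, so its 100% of protein-coding TPM is set by the annotation. Depth limits isoforms near the floor, and isoforms without stretches of their own rest on how reads were divided.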
